A study of Mus musculus with 3 samples.

Results

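Olfactory receptor genes encode the odorant receptors of the nose, a large family of G protein-coupled receptors. Each mature olfactory sensory neuron transcribes a single receptor allele, and the genes lie in tandem clusters. The question here was how tags of nuclear factor I (NFI), a family of transcription factors that bind a palindrome of TTGGCA and TGCCAA, were distributed over them in fibroblasts, cells that are not olfactory neurons. The members were the genes that the annotation of mm9 classes as protein-coding, places on chromosome 9 and names Olfr followed by a number. There were 129 such genes among 22367 protein-coding genes of chromosomes 1 to 19, X and Y, and 1136 other protein-coding genes on chromosome 9 and 984 olfactory receptor genes on other chromosomes served for comparison.

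The cells were primary mouse embryonic fibroblasts (MEF) taken from embryos of 14.5 days and grown for 6 to 7 passages. The 3 libraries were an NFI ChIP from wild-type cells, an NFI ChIP from NFI-C knock-out cells, in which the NFI-C gene was disrupted by an insertion, and input DNA of wild-type cells sequenced without immunoprecipitation. The antibody was raised against the NFI family, so that the other family members could still be precipitated in the knock-out. The labels of the knock-out disagree, since 1 line of text calls the cells wild-type while the title calls them knock-out, and the title was followed. With 1 library per condition there was no replicate and no test across samples, and all intervals are 95% intervals that cover counting error only. After identical positions on a strand were reduced to 1 tag, the libraries held 3350071 wild-type ChIP tags, 3132004 knock-out ChIP tags and 4100449 input tags. Before this step a position held a mean of 2.92, 3.45 and 1.32 tags in these libraries, so counts of every tag hold unequal shares of copies.

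Each gene was taken with 10 kb on both sides, and a level is the number of tags per base of such a window divided by the same number over all of chromosome 9, so that 1 is the chromosome average. A ratio of 2 libraries is the ratio of their tags after scaling to the library totals. The windows of 77 members shared bases with the window of another member, and all 129 together covered 80 separate stretches of 2.47 Mb. Neighbouring members were therefore no independent measurements.

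The 129 genes formed 2 clusters, in which neighbours lay less than 500 kb apart. Cluster 1 held 35 genes from Olfr24 (chr9:18559100-18560153) to Olfr18 (chr9:20118336-20140538), and cluster 2 held 94 genes from Olfr151 (chr9:37518857-37538646) to Olfr986 (chr9:39994664-39995679). The median gene length was 951 bp and 104 genes were shorter than 1100 bp, about the length of the single coding exon of a receptor of this family. The length was a multiple of 3 for 91 genes (70.5%), so an annotated start is often a coding start and need not be the start of the transcript. The windows were poor in G and C, with 37.1% against 42.7% over the chromosome. Of their bases, 79.8% started a stretch of 32 bases found once in the genome, against 87.3% of chromosome 9, and this share was 74.0% in cluster 1 and 82.5% in cluster 2. Only such stretches can receive a unique tag.

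All 3 libraries were below the chromosome average over the olfactory receptor windows, and by this measure the input was the lowest. The windows held 2778 wild-type ChIP tags, a level of 0.807 (0.778 to 0.838). They held 2352 knock-out ChIP tags, a level of 0.726 (0.697 to 0.756), and 2646 input tags, a level of 0.617 (0.594 to 0.641). Relative to the number of bases that can receive a unique tag, the levels were 0.884 for wild-type ChIP, 0.794 for knock-out ChIP and 0.676 for input.

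The input level was below 1 for 128 of the 129 members, that is 99.2%, while 28.9% of all protein-coding genes were below the average of their own chromosome in the input. The exception was Olfr959 with 43 input tags and a level of 1.18 (0.852 to 1.59). In the wild-type ChIP 103 members were below the average, against a background of 37.1% of all genes. In the knock-out ChIP 108 members were below it, against 37.0%. The level was at most 0.5 at 13 members for the wild-type ChIP, 21 for the knock-out ChIP and 26 for the input. The backgrounds were 6.79%, 6.62% and 7.18% of all genes, not matched for tag count.

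**Figure D1:**
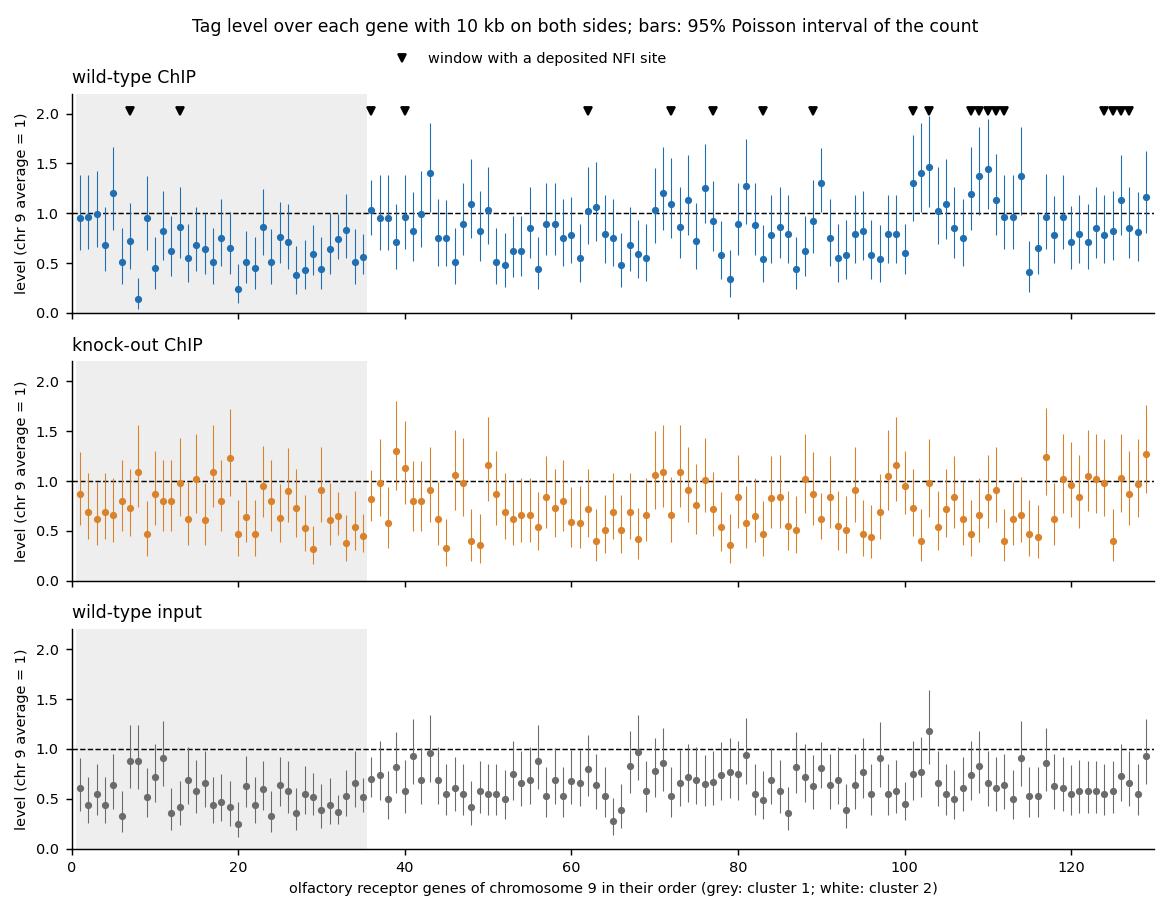
Level of tags over each of the 129 olfactory receptor genes of chromosome 9 with 10 kb on both sides (y axis, chromosome average = 1) in gene order (x axis), with 1 panel for each library. Bars are 95% Poisson intervals of the count and triangles mark the 20 windows with a deposited NFI site, 18 of which belong to cluster 2. The input points sit below the dashed line at 1 for 128 genes, while the wild-type ChIP points reach 1.47 in cluster 2.

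The 2 clusters differed most in the wild-type ChIP. Its level was 0.657 (0.609 to 0.707) in cluster 1 and 0.876 (0.839 to 0.915) in cluster 2. The knock-out ChIP level was 0.706 (0.655 to 0.760) in cluster 1 and 0.735 (0.699 to 0.771) in cluster 2, with intervals that overlapped. The input level was 0.535 (0.496 to 0.576) in cluster 1 and 0.655 (0.626 to 0.685) in cluster 2. The lower share of unique bases in cluster 1 moved in the same direction as the wild-type ChIP and input levels, and its part in the difference was not tested.

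The low input level ended with the clusters. The 1 Mb stretches on both sides of cluster 1 had an input level of 1.04 (1.01 to 1.07), against 0.517 over the whole span of the cluster. The stretches on both sides of cluster 2 had an input level of 1.15 (1.12 to 1.19), against 0.636 over its span. The GC content of these flanks was 43.0% and 44.5%, and that of the spans 38.0% and 37.7%.

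The olfactory receptor genes of other chromosomes had similar levels. Each was set against its own chromosome, and their median level per gene was 0.774 for wild-type ChIP, 0.772 for knock-out ChIP and 0.675 for input. The corresponding medians of the 129 members were 0.789, 0.724 and 0.606. The 1136 other genes of chromosome 9 had medians of 1.08, 1.08 and 1.27. The middle 50% of the members, 0.523 to 0.716 in the input, lay below the middle 50% of those other genes, 1.01 to 1.62.

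**Figure D2:**
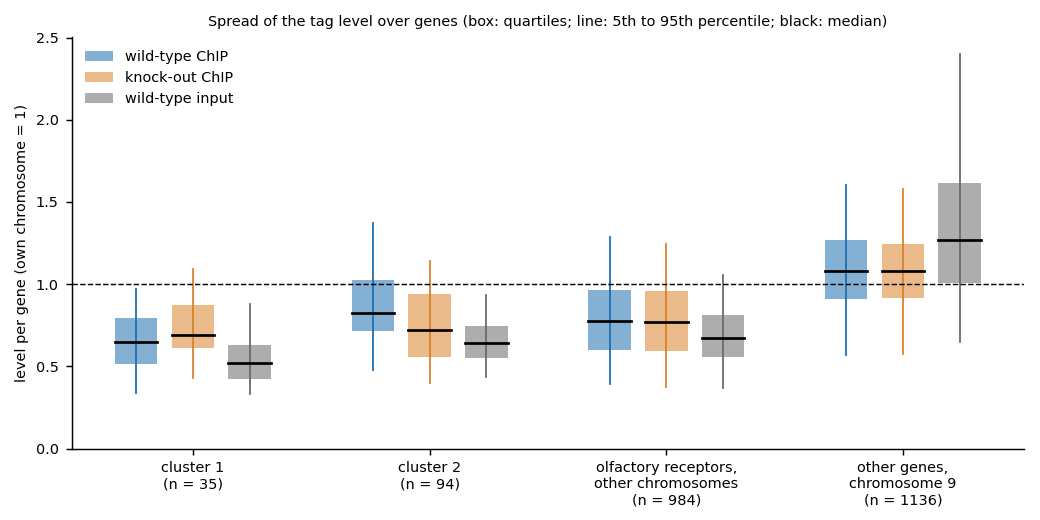
Level of tags per gene (y axis, average of the gene's own chromosome = 1) in the 3 libraries for clusters 1 and 2, olfactory receptor genes of other chromosomes and other genes of chromosome 9. Boxes span the quartiles, lines the 5th to 95th percentile and black bars the median: the 3 olfactory receptor groups have all their medians below 1 and the other genes above it, with the input highest among the other genes.

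Both ChIP libraries exceeded the input over the members after scaling to the library totals. The ratio of wild-type ChIP to input was 1.29 (1.22 to 1.36) and that of knock-out ChIP to input 1.16 (1.10 to 1.23). The same ratios over the other genes of chromosome 9 were 0.925 and 0.924. The same ratios were taken over the receptor genes of the 11 other chromosomes with at least 20 olfactory receptor genes. They ran from 0.951 to 1.19 for wild-type ChIP and from 0.954 to 1.18 for knock-out ChIP. The wild-type value of the members lay above this range and their knock-out value within it. The highest wild-type ratio, on chromosome 2, had an interval of 1.14 to 1.24, which overlapped that of the members. GC content moved with these ratios. In bins of 20 kb of chromosome 9 outside the windows, weighted to the GC content of the windows, the wild-type ChIP was 1.23 times the input and the knock-out ChIP 1.19 times the input. Relative to these bins the wild-type ratio over the members was 1.05 (0.993 to 1.10) and the knock-out ratio 0.974 (0.921 to 1.03), and both intervals held 1. Against bins of the same GC content, the tag level itself remained low, at 0.821 (0.791 to 0.853) for wild-type ChIP, 0.764 (0.733 to 0.795) for knock-out ChIP and 0.784 (0.755 to 0.815) for input.

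A 2-fold difference between ChIP and input was counted at members with at least 10 tags in both libraries together. All 129 members met this minimum in every pair of libraries. The wild-type ChIP was at least 2-fold above the input at 7 members (5.43%), against 0.685% of all genes tested, and at least 2-fold below it at 3 members, against 7.85%. The knock-out ChIP was at least 2-fold above the input at 11 members, against 0.915% of all genes, and at least 2-fold below it at 2, against 7.85%. Of these 11 members 8 lay in cluster 1, which held 35 of the 129 members. At 1.5-fold 40 members were higher in the wild-type ChIP than in the input, against a background of 3.93%, and 38 were higher in the knock-out ChIP, against 4.55%. At the same fold 7 members were lower in the wild-type ChIP than in the input, against 23.3%, and 13 in the knock-out ChIP, against 23.0%. Of the olfactory receptor genes on other chromosomes 4.07% passed the 2-fold mark upwards in the wild-type ChIP and 5.19% in the knock-out ChIP.

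The highest ratio of wild-type ChIP to input was 2.69 at Olfr906, which had 22 wild-type ChIP tags, 19 knock-out ChIP tags and 10 input tags. Olfr888 followed with 32, 11 and 15 tags and Olfr935 with 23, 15 and 13 tags. The input level at Olfr906 was low, 0.275, and its ChIP levels of 0.755 in the wild-type and 0.692 in the knock-out were below the chromosome average. At Olfr888 the wild-type level was 1.10 and the knock-out level 0.400. The lowest ratio of wild-type ChIP to input was at Olfr836, with 4 wild-type ChIP tags, 30 knock-out ChIP tags and 32 input tags. Olfr923, with 10, 10 and 28 tags, was low in both ChIP libraries, as was Olfr25 with 13, 15 and 32 tags.

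The level of the wild-type ChIP was highest at Olfr959, with 43 tags and a level of 1.47 (1.06 to 1.98). Olfr150 (42 tags, level 1.44), Olfr958 (41 tags, level 1.41), Olfr881 (41 tags, level 1.41) and Olfr970 (40 tags, level 1.37) followed, and their intervals overlapped. All 5 genes belonged to cluster 2. The lowest level after Olfr836 was that of Olfr857 in cluster 1, with 7 tags of the wild-type, 13 of the knock-out and 9 of the input. Of the bases of the Olfr857 window 45.9% were unique, and the part of this share in its counts was not tested. Olfr923, Olfr867 and Olfr971, with 10, 11 and 12 wild-type ChIP tags, completed the 5 lowest.

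The wild-type ChIP exceeded the knock-out ChIP over the members by 1.10 (1.04 to 1.17). In cluster 2 the ratio was 1.18 (1.11 to 1.26), and in cluster 1 it was 0.923 (0.831 to 1.03). In the 11 other chromosomes with at least 20 olfactory receptor genes, the same ratio had a median of 0.998. It ran from 0.879 on chromosome 11 to 1.06 (0.955 to 1.17) on chromosome 14. The value of cluster 2 lay above this range and that of cluster 1 within it. However, those chromosomes were not split into clusters, and the interval of chromosome 14 overlapped that of cluster 2. Over the whole of chromosome 9 the ratio was 0.992. Runs of a library share the same DNA. With each wild-type or knock-out run used alone, the ratio in cluster 2 lay between 1.14 and 1.26, and that in cluster 1 between 0.879 and 1.13. The direction in cluster 1 depended on the counting, since with every uniquely mapped tag counted the ratio was 1.09 (1.03 to 1.16) in cluster 1 and 1.33 (1.28 to 1.38) in cluster 2.

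In steps of 100 kb from the first gene, the wild-type level was above the knock-out level in 19 of 25 steps of cluster 2 and in 5 of 16 steps of cluster 1. The step from 1800 kb held 172 tags of the wild-type, 75 of the knock-out and 142 of the input, and its wild-type count was the largest of any step. A stretch of 4 steps beginning there was chosen for its high wild-type counts relative to the knock-out, after these were seen. It held 17 member starts with 557 wild-type and 326 knock-out tags, a ratio of 1.60 (1.39 to 1.84). The other 21 steps of cluster 2 had a ratio of 1.06 (0.999 to 1.13). The choice of the 4 steps fixes that their ratio exceeds that of the others, so the values and intervals are a description only. The 4 steps held 8 of the 24 deposited NFI sites of the cluster span, which were called on NFI ChIP tags.

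**Figure D3:**
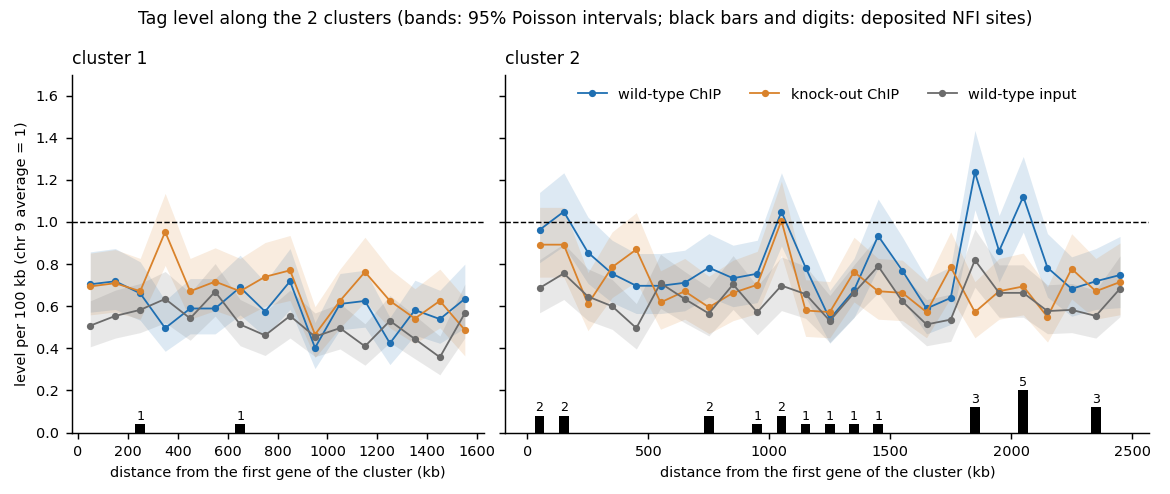
Level of tags in steps of 100 kb (y axis, chromosome average = 1) against the distance from the first gene of cluster 1 (left) and cluster 2 (right) in kb. Bands are 95% Poisson intervals and black bars with digits give the number of deposited NFI sites: the wild-type ChIP is above 1 at 4 steps of cluster 2, while the input stays below 1 in all 41 steps.

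The wild-type ChIP was at least 2-fold above the knock-out ChIP at 14 members (10.9%), against 1.2% of all genes tested and 4.99% of the olfactory receptor genes elsewhere. It was at least 2-fold below at 4 members (3.1%), against 1.26% of all genes and 4.28% of olfactory receptor genes elsewhere. At 1.5-fold 26 members were higher, against a background of 6.25%, and 14 were lower, against 7.13%. Of the olfactory receptor genes elsewhere 14.9% were higher and 15.1% lower at this fold. Of the 14 members past 2-fold upwards 12 lay in cluster 2, which held 94 of all 129 members. A deposited site lay in the windows of 4 of the 14, against 20 of the 129 members (15.5%). The sites were called on NFI ChIP tags, so this count is no independent result. The member just inside the 2-fold mark was Olfr843, with 28 wild-type and 13 knock-out tags, and the member just outside was Olfr869, with 24 and 12. At these counts the call of a single member rests on a few tags. The shares of all genes were not matched for tag count. Their medians were 54 wild-type and 51 knock-out tags, against 24 and 20 at the members.

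The largest ratio was that of Olfr958, with 41 tags of the wild-type, 11 of the knock-out and 28 of the input, a wild-type to knock-out ratio of 3.48 (1.76 to 7.52). The 3 wild-type runs held 32, 29 and 7 tags in this window and the 3 knock-out runs 4, 8 and 7, with the third wild-type run and the first knock-out run the smallest runs of their libraries. Its window held no deposited site. Olfr888 (32 against 11 tags, ratio 2.72) and Olfr904 (31 against 11 tags, ratio 2.63) followed. Input tags at both genes, 15 and 23, lay between the wild-type and knock-out counts.

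Olfr836 showed the opposite. Its ratio of wild-type to knock-out ChIP was 0.125 (0.0319 to 0.354), with 4 against 30 tags, and the input with 32 tags was close to the knock-out. The wild-type runs held 3, 4 and 0 tags there, the knock-out runs 10, 20 and 23, and the input runs 20 and 16. With every uniquely mapped tag counted, the window held 15 tags of the wild-type, 87 of the knock-out and 41 of the input. Of the bases of the window 81.5% were unique, and the reason for the low wild-type count was not tested. Olfr853 (15 against 30 tags, ratio 0.467) and Olfr885 (15 against 29 tags, ratio 0.484) were the next lowest.

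The measured levels of the 2 ChIP libraries were only loosely related over the members. Across the 129 members Pearson's r was 0.16 between wild-type and knock-out ChIP levels (Spearman's rho 0.21), 0.37 between wild-type ChIP and input (rho 0.31) and 0.13 between knock-out ChIP and input (rho 0.12). The level of each library followed the share of unique bases of the window, with r of 0.55 for wild-type ChIP, 0.29 for knock-out ChIP and 0.46 for input. These correlations describe windows that overlap and share their libraries, and the members are no independent samples. The median count of a member window was 24 tags of the wild-type, 20 of the knock-out and 23 of the input. Counting error at such counts lowers a correlation, and its part in the low values was not tested. The low values therefore do not show that the underlying levels were unrelated.

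Around the annotated starts, the profile of the members lacked the input peak of other genes. Within 1 kb downstream of the start the input level was 0.630 (0.531 to 0.743) at the members and 6.36 at the 1136 other genes of chromosome 9. The annotated start of a member is often a coding start, so the 2 profiles are not centred on like points. They were also not matched for GC content. In the 1 kb bin from 2 to 1 kb upstream of the members, both ChIP libraries reached their highest levels, 1.14 (0.991 to 1.31) in the wild-type and 1.12 (0.969 to 1.29) in the knock-out, while the input was 0.666 (0.563 to 0.782). This bin was picked as the highest of 20. At the 984 olfactory receptor genes elsewhere the ChIP levels in the same bin were 0.865 and 0.868. In the first 1 kb downstream of the members' starts the wild-type level was 0.685 (0.569 to 0.817) and the knock-out level 0.514 (0.412 to 0.634). The share of unique bases was 92.5% in the upstream bin and 83.4% in the downstream bin. It was highest, 95.6%, in the 1 kb before the start, where the ChIP levels were 0.885 and 0.893. The intervals of the ChIP libraries did not overlap in 2 of the 20 bins, in opposite directions. From 3 to 2 kb upstream the wild-type level was 1.04 (0.892 to 1.20) and the knock-out level 0.703 (0.583 to 0.842). From 5 to 6 kb downstream the wild-type level was 0.601 (0.493 to 0.726) and the knock-out level 0.898 (0.761 to 1.05).

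**Figure D4:**
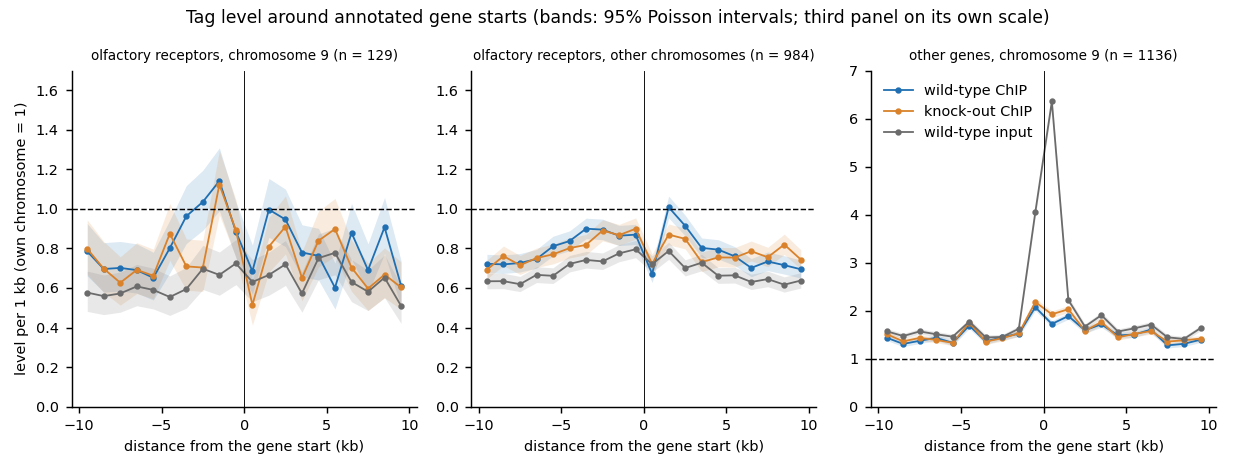
Level of tags in bins of 1 kb (y axis, average of the gene's own chromosome = 1) against the distance from the annotated gene start in kb, for the 129 members, the 984 olfactory receptor genes of other chromosomes and, on its own scale, the 1136 other genes of chromosome 9. Bands are 95% Poisson intervals: the input peak of 6.36 just downstream of other gene starts has no counterpart at olfactory receptor genes, whose first 1 kb downstream is a local minimum of all 3 libraries. Many starts of the members are coding starts, and the groups were not matched for GC content.

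In vivo NFI sites, as deposited by the authors, were fewer over the members than on the chromosome. The windows contained 21 sites, or 8.50 per Mb (5.26 to 13.0), against 16.7 per Mb over chromosome 9. Among sites with 5 or more wild-type tags in 300 bp the density was 1.62 per Mb (0.441 to 4.14) against 2.01 per Mb on the chromosome, so that at this setting a lower density was not detectable. At least 1 site lay in the windows of 20 members (15.5%), while 53.2% of all protein-coding genes had a site in their window and 13.9% of the olfactory receptor genes on other chromosomes. These shares were not matched for window length, and a longer window can hold a site more often. The members, with a median gene length of 951 bp, had short windows, while a density per Mb takes length into account. Cluster 1 had 2 sites (2.58 per Mb, 0.313 to 9.33) and cluster 2 had 19 (11.2 per Mb, 6.74 to 17.5). Of the 21 sites 14 lay upstream of the nearest member, 5 downstream and 2 within Olfr151, and 7 were within 3 kb upstream of a member.

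The 4 sites that had 5 or more wild-type tags in the 300 bp around them are shown with 61 bases of the forward strand of mm9, the deposited interval of 16 bases being in capitals. They are shown because they carried the most wild-type tags over this family.
Olfr902, 2488 bp upstream, chr9:38253859-38253919: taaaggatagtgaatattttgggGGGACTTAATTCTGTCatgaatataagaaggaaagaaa
Olfr965, 7034 bp upstream, chr9:39519750-39519810: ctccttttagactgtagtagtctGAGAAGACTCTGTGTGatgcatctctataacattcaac
Olfr983, 1725 bp upstream, chr9:39902838-39902898: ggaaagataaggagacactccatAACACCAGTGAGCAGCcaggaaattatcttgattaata
Olfr916, 7814 bp downstream, chr9:38457199-38457259: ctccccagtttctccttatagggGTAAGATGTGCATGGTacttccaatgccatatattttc

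The site upstream of Olfr902 held 7 wild-type ChIP tags and none in the knock-out ChIP or the input. The site upstream of Olfr965 held 6 wild-type tags, 1 knock-out tag and 0 input tags, and lay in the windows of 2 members. The site upstream of Olfr983 held 6, 2 and 1 tags, and that downstream of Olfr916 held 5, 0 and 0. A count of 0 was read as up to 3 tags, a fixed value and not an exact Poisson limit. A second site upstream of Olfr902, 3003 bp away, held 3 wild-type tags and no knock-out or input tag. Of the 2 sites inside Olfr151, 1 held 4 wild-type tags and the other 3, with 0 in the knock-out ChIP and the input.

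Over all 21 sites the wild-type ChIP had 77 tags in the 300 bp around them, a mean of 3.67 (2.89 to 4.58) per site. The knock-out ChIP and the input had 5 tags each, a mean of 0.238 (0.0773 to 0.556), and each of them was at 0 at 17 sites. The remaining 1989 sites of chromosome 9 had means of 3.23 tags of the wild-type, 0.746 of the knock-out and 0.831 of the input. The windows as a whole held 0.952 knock-out and 1.07 input tags per kb, both below the chromosome. The sites were called on NFI ChIP tags, so that their wild-type counts are no independent measurement of binding. With tags moved by 75 bp in their direction, as the authors did, 6 of the 21 sites and 17.1% of the others reached the authors' threshold of 5 tags. The repeat filter applied before the calling was not rebuilt here.

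The NFI palindrome, that is TTGGCA, any 3 bases and TGCCAA, was searched on both strands. Within 150 bp of the 21 sites no match with at most 2 mismatches was found, and the closest match, near the site of Olfr921, had 3. Elsewhere on chromosome 9, 64 of the 1989 sites (3.22%) had a match with at most 2 mismatches, so that the absence of such a match at 21 sites is close to this background. The family did not lack such sequences, with 103 matches with at most 2 mismatches in its windows, or 41.7 per Mb (34.0 to 50.5) against 42.2 per Mb on the chromosome. There was no perfect match, where the chromosome has 7, and there were 5 with 1 mismatch. A match inside Olfr151 and 1 upstream of Olfr920 are shown, with bases that match the palindrome in capitals.
Olfr151, chr9:37534652-37534666: TTGGtAtatTGCCAA
Olfr920, chr9:38553730-38553744: TTGGCtagaTGCCAA

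The match upstream of Olfr920 held 3 wild-type and 4 knock-out tags in the 300 bp around it and no input tag. That inside Olfr151 held 1 wild-type tag and no knock-out or input tag, and the 3 remaining matches with 1 mismatch held no ChIP tag. Over all 103 matches the level in the 300 bp around them was 1.09 (0.803 to 1.45) for wild-type ChIP, 0.839 (0.581 to 1.17) for knock-out ChIP and 0.635 (0.439 to 0.887) for input. The corresponding levels at the 5091 matches of the chromosome were 1.27, 1.33 and 1.01.

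The members were almost free of the histone methylation domains that the authors derived from published MEF data. H3K27me3, the mark of Polycomb repression, covered 1.83% of the bases of the windows and 45.0% of chromosome 9. An H3K27me3-rich region touched 4 members (3.1%), against 78.3% of all genes and 12.9% of the olfactory receptor genes on other chromosomes. Shares of genes touched, here and for the other marks, were not matched for window length. The 4 members were Olfr878, Olfr148, Olfr960 and Olfr986, all in cluster 2. H3K27me3-rich regions held at least 50% of the window at 3 members, against 47.1% of all genes. At Olfr986, the last gene of the cluster, the whole window of 21016 bases was covered, and at Olfr960 3259 bases. H3K27me3-rich regions also touched all 13 fibroblast, 9 neural and 6 liver and gut genes examined below. A touched window is therefore not by itself a mark of repression.

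Regions rich in H3K4me3, found at active promoters, touched 2 members, Olfr148 and Olfr986, against 72.2% of all genes. Regions rich in H3K36me3, found along transcribed genes, touched 4 members, Olfr18, Olfr920, Olfr148 and Olfr986, against 62.5%. At least 50% of the window lay in such regions at 0 members for either mark, against 32.9% for H3K4me3 and 47.0% for H3K36me3. Of the bases of all windows, H3K4me3-rich regions covered 0.347%, against 20.2% of chromosome 9, and H3K36me3-rich regions 0.397%, against 23.0%. RNA was not measured in these libraries, and the label of a silent family was checked only by these marks. In the 1 Mb stretches on both sides of cluster 2, H3K27me3-rich regions covered 83.0% of the bases and H3K36me3-rich regions 41.9%, against 1.84% and 1.88% of the span of the cluster. On both sides of cluster 1 the shares were 25.0% and 30.9%, against 0.756% and 1.61% of its span. These regions were called by the authors from unique tags, and the share of unique bases was 70.1% in the span of cluster 1 against 81.7% in its flanks, and 78.2% in the span of cluster 2 against 92.6% in its flanks. Its part in the low coverage was not tested.

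Lamina domains, chromatin attached to the nuclear envelope, divided the clusters. A domain overlapped 94 members (72.9%), against 22.6% of all genes and 48.0% of the olfactory receptor genes elsewhere. These 94 were all the members of cluster 2, whose windows lay wholly within domains. None of the 35 members of cluster 1 overlapped a domain. The domains were mapped in human Tig3 fibroblasts and lifted over to mm9 by the authors and lamina contacts were not measured in the MEF. The 4 H3K27me3 members lay inside the lamina domain as well.

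**Figure D5:**
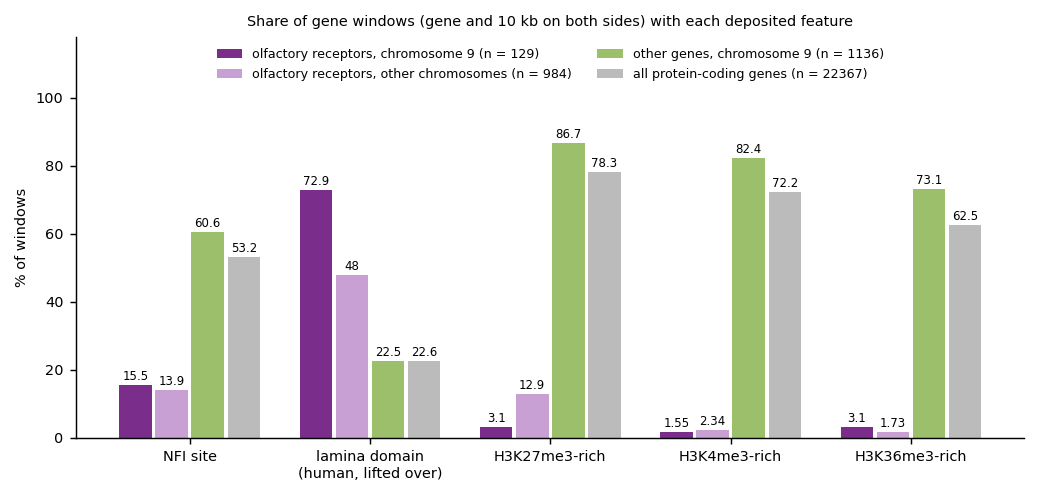
Share of gene windows (y axis, in %) with at least 1 deposited NFI site or an overlap with a lamina domain or a region rich in H3K27me3, H3K4me3 or H3K36me3, for the 129 members, the other olfactory receptor genes, the other genes of chromosome 9 and all protein-coding genes. The members stand at 72.9% for lamina domains and at 3.1% or less for the 3 histone marks, where all protein-coding genes stand between 62.5% and 78.3%. Windows were not matched for length between the groups.

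Near-identical copies limit what unique tags can show inside the genes. Olfr955 had the lowest share of bases that start a unique stretch of 35 bases, 36.3%, and shared 62.6% of its stretches of 32 bases with Olfr952. Olfr859 followed with 42.9% and shared 49.3% with Olfr58, and Olfr951 with 45.2% and shared 50.3% with Olfr954. Windows dilute this with flanks, and at Olfr955 the window held 23 tags of the wild-type, 32 of the knock-out and 21 of the input. The gene bodies of all members together held 272 tags of the wild-type, 181 of the knock-out and 263 of the input, and the ratio of wild-type to knock-out there was 1.40 (1.16 to 1.71), against 1.08 (1.02 to 1.14) in the flanks. A few long gene models weigh in these sums, so they are not sums over coding exons alone. Of the 249166 bases of gene bodies, Olfr872 has 23752, Olfr18 22203 and Olfr151 19790. Olfr151 alone held 37 of the wild-type and 22 of the knock-out tags.

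RefSeq promoter entries of GRCm38.p6, from 250 bases before to 50 after the annotated start, were found for 106 members with 107 entries. The annotated start was itself an ATG in 67 of these (62.6%) and in 5.83% of all entries, so that for many members it is a coding start and the bases before it need not be the promoter. Their median GC content was 34.0% against 52.7% for all 32851 entries. TAATTA, a core of homeodomain sites such as those of Lhx2 and Emx2, occurred on either strand in 24.3% of the members' entries and in 5.29% of all entries. TATAAA occurred in 43.9% against 13.6%, both strands counted. Most entries of the members thus lacked each of these motifs, and the comparison was not matched for base composition. TTGGCA, the NFI half-site, occurred in 18.7% against 14.1%, and TCCC, any 2 bases and GGGA, a form of the Ebf site, in 0% against 0.904%. The entry of Olfr24, the first gene of cluster 1, whose annotated start is an ATG, is printed 5′ to 3′ on its own strand as an example of this base composition, with TAATTA in capitals.
Olfr24, GRCm38.p6, chr9:18755584-18755883, minus strand: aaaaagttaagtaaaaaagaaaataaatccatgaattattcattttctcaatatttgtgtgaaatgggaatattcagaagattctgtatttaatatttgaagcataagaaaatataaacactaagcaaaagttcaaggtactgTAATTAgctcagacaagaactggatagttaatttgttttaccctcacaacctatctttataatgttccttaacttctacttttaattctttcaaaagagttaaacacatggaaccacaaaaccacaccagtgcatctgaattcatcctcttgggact

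Genes of olfactory signal transduction and receptor choice were examined for comparison. Of 23 genes found, among them Gnal and Adcy3, the G protein and cyclase of the odour response, and Lhx2 and Ebf1, regulators of receptor choice, 3 were below the average of their chromosome for input, 11 for wild-type ChIP and 6 for knock-out ChIP, against 28.9%, 37.1% and 37.0% of all genes. Their median levels were 1.07 for wild-type ChIP, 1.13 for knock-out ChIP and 1.22 for input, and 15 had a deposited site and 22 an H3K27me3-rich region in the window, against 53.2% and 78.3% of all genes. Their windows, of 22143 to 410775 bases, were mostly longer than those of the receptors. Their median GC content was 46.1%. Fibroblast genes of chromosome 9 such as Thy1 and Col12a1 had median levels of 1.27, 1.26 and 1.64 over 13 genes, and 11 had a site. The windows of all 13 overlapped regions rich in H3K27me3, H3K4me3 and H3K36me3, against 78.3%, 72.2% and 62.5% of all genes. Neural genes of chromosome 9 such as Opcml had 0.858, 0.793 and 0.832 over 9 genes. In each library 8 of these were below 1, against 37.1%, 37.0% and 28.9% of all genes. Ncam1 was the exception with 1.30, 1.15 and 1.04. The windows of the 9 genes, of up to 1263885 bases, all overlapped a lamina domain at least in part, against 22.6% of all genes. A site lay in 8 of them, against 53.2%, and their site density was 13.9 per Mb, below the 16.7 per Mb of the chromosome. The 6 liver and gut genes, such as Apoa1, had medians of 0.983, 0.825 and 1.39.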

How the data were processed

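Reads of the 3 libraries had been aligned to mm9 by the authors using ELAND, and the deposited lines give 1 read each with the kind of match, place and strand, without normalization. Per the deposited notes, in vivo sites came from ChIP-Peak (sliding window of 300 bp, 5 tags, shift of 75 bp, repeat filter), histone regions from ChIP-PART, and lamina domains from human cells by lift-over. The deposited tags are counted here, so every value is a count or its scaled form.

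Reads without mismatch equalled the mm9 sequence over 32 bases in 100% of 5000 reads checked per library, but not always over 35, so the 5′ end of a reverse read was set from 32 matched bases. Unique tags with at most 2 mismatches on the autosomes, X and Y entered once per position and strand. Runs of a library (3, 3 and 2) were pooled. Genes came from GENCODE vM1 on the same build. Intervals were exact Poisson for counts and exact Clopper-Pearson for ratios. A count of 0 was taken to allow up to 3 tags, a fixed value that is not the limit of these intervals. The rules were tested on simulated counts. Scripts ran under Python 3.11.15 with pandas 2.3.3, SciPy 1.17.1, NumPy 2.4.6 and matplotlib 3.10.9.

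The members and gene lists were chosen with earlier results of these data known. Members were named by rule: those with a site (up to 12, by wild-type tags), the 5 highest and 5 lowest wild-type levels, the 3 highest and 3 lowest ratios of wild-type ChIP to input and to knock-out ChIP, the ends of the clusters, the 3 with the fewest unique 35-base stretches, and members in H3K27me3-rich regions or outside lamina domains (up to 8 each). Alternatives covered flanks, mismatches, duplicate tags, runs, pseudogenes, averages and thresholds.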

Additional observations from a re-analysis of the deposited data

How the results depend on the processing

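No paired analysis was possible because each condition had 1 library, and no test was made. Of 133 alternative values 86 stayed within their limits and 47 moved, and in no case was the cause tested. The comparisons with bins of the same GC content, the unique 32-base stretches, the average without the 5 bins of 10 kb with most input tags and both cluster ratios were chosen after seeing the data. The level over the windows was 0.732 in the wild-type ChIP and 0.692 in the knock-out ChIP with a flank of 50 kb, and 0.554 in the knock-out ChIP over genes alone. With every uniquely mapped tag it was 0.616 for the knock-out and 0.453 for the input. Per unique 35-base stretch the wild-type, knock-out and input levels were 0.873, 0.785 and 0.668, per unique 32-base stretch 0.884, 0.794 and 0.676, and against the genome average 0.858, 0.777 and 0.668. Against bins of the same GC content the knock-out level was 0.764 and the input level 0.784. Over genes alone the input level was 0.609. In these settings the knock-out ChIP and not the input was the lowest, with intervals that overlapped. Single runs gave 0.852 and 0.761 (wild-type runs 2 and 3), 0.643 (knock-out run 1) and 0.586 (input run 2).

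The ratio of wild-type ChIP to input was 1.20 with a flank of 50 kb, 1.49 with every tag and 1.05 relative to bins of the same GC content. That of knock-out ChIP to input was 0.901 over genes alone, 0.974 relative to the same bins and 1.05 with knock-out run 1, so that its side of 1 depended on the setting. That of wild-type to knock-out ChIP was 1.40 over genes alone, 1.26 with every tag and 1.23 with knock-out run 1. In cluster 1 these 3 settings gave 1.27, 1.09 and 1.13, above 1 where the main value was 0.923, and in cluster 2 the first 2 gave 1.49 and 1.33. Sites with at least 5 wild-type tags numbered 1.62 per Mb against 2.01 on the chromosome, 0.804 of its density where all sites gave 0.510.

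At a fold of 1.5, 40 members were higher and 7 lower in the wild-type ChIP than in the input (backgrounds 3.93% and 23.3%). This and the following backgrounds were not matched for tag count. In the knock-out ChIP 38 were higher and 13 lower than in the input (4.55% and 23.0%). Between the ChIP libraries 26 were higher and 14 lower in the wild-type (6.25% and 7.13%). With every tag, 25 were higher and 1 lower in the wild-type ChIP than in the input at 2-fold, against 2.06% and 12.7% of all genes counted alike. A minimum of 40 tags left 100 members for wild-type ChIP against input, 88 for knock-out ChIP against input and 84 for the ChIP libraries against each other, and so fewer members that could pass. Among these 1 was lower in the wild-type ChIP than in the input (background 7.9%), 5 were higher and 1 lower in the knock-out ChIP than in the input (0.462% and 7.98%), and 2 were lower in the wild-type than in the knock-out ChIP (0.8%).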
